A study of Mus musculus with 82 samples.

Results

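The genes described here encode some of the non-collagen components of the basement membrane: the laminin chains Lama2, Lama3, Lama4, Lama5, Lamb1 and Lamc1, the nidogens Nid1 and Nid2, perlecan (Hspg2) and agrin (Agrn). They were chosen by name for their place in this membrane, and all 10 were found in the gene column of the deposited count tables, among 55401 genes. Laminins are trimers of an alpha, a beta and a gamma chain that bind cell-surface integrins and dystroglycan and polymerise into a sheet. Nidogens bind the laminin gamma chain and link this sheet to the collagen IV network and to perlecan, and perlecan and agrin are large proteins that carry heparan sulfate chains. In the arterial media such a membrane surrounds each smooth muscle cell, and endothelial cells rest on another.

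Primary aortic vascular smooth muscle cells (aVSMC) from C57BL/6 mice, used up to passage 7, were kept without serum for 24 h and then incubated for 24 h or 48 h, and polyadenylated RNA was counted per gene, in order to compare the response to stimuli of the vascular wall alone and combined. The stimuli were epidermal growth factor (EGF, 10 µg/L), angiotensin II (AngII, 10 nM) and the thromboxane receptor agonist U46619 (1 µM). At 24 h, cultures from 6 mice each received all 7 incubations (no stimulus, each stimulus alone, EGF with AngII, EGF with U46619, and the 3 together), giving 42 libraries. At 48 h, 40 libraries came from 10 culture sets in 2 sequencing batches of 5 sets: control and EGF had 10 libraries each, U46619 and EGF+U46619 had 5 each in batch B1 only, and AngII and EGF+AngII had 5 each in batch B2 only. Library totals were 16483529 to 20818809 counts at 24 h (median 19695633) and 19936925 to 33916114 at 48 h (median 25922414). Levels are given as FPM (fragments per mega-count of the TMM-scaled library size), and levels of different genes are compared only as FPM per kilobase of exon.

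Markers of the labelled cell type could be read in part, and a gene listed at 0 is not taken here as not expressed. Of 8 smooth muscle markers, 6 had counts, Acta2 was the most abundant with a mean of 5482 FPM at 24 h and 2629 FPM at 48 h, and Cnn1 and Tagln were listed at 0, as were all 7075 genes of chromosomes 9, X, Y and MT, which were not analysed here. Cultures also differed in markers of endothelium, 7 of 8 of which had counts, with Pecam1 the most abundant and Cdh5 listed at 0. Their sum in the 24 h controls was 4.85 FPM in mouse 1, 6.57 in mouse 2, 61.2 in mouse 3, 772.5 in mouse 4, 443 in mouse 5 and 2192 in mouse 6. Mice 1 and 2 were thus nearly without these transcripts and mouse 6 was rich in them, and the sums after U46619 differed between mice in a similar way (5.22, 3.03, 59.0, 597, 333 and 1949 FPM).

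Some libraries of 48 h stood apart from the others of their culture set. At 48 h, 57 of 60 pairs of libraries from 1 culture set deviated together from their group means (r over 0.1), and the other 3 pairs all held the control of set B2-4 (r = -0.28 in each). That library was nearest to set B2-2 (median r = 0.85), and its endothelial marker sum of 2266 FPM was far above the 325, 337 and 318 FPM of the EGF, AngII and EGF+AngII libraries of B2-4 and near the 2228, 2411 and 2129 FPM of those of B2-2. The control of set B2-2 was as near to set B2-1 (median r = 0.55) as to its own set (0.54), and its leukocyte marker sum was 224 FPM against 38.0, 37.0 and 37.0 FPM. At 24 h all 126 pairs within a mouse were above 0.1, the lowest at 0.395. The EGF+AngII+U46619 library of mouse 3 had the lowest median of its group with its own mouse (0.57), but that of mouse 2 was close (0.59). Its nearest other mouse was at 0.063, so it matched its own mouse. Leaving it out was a choice made after seeing the data. The controls of B2-4 and B2-2 and this library of mouse 3 were kept. Calls of the 10 genes against control that changed without them are named. Control levels and correlations are given only with them.

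Per kilobase of exon, Nid1 had the highest median of the 10 genes in control cultures, 91.1 FPM per kb at 24 h (62.2 to 180.2, n = 6) and 71.4 at 48 h (41.0 to 126, n = 10). It did not lead in every culture: at 24 h Hspg2 was above it in mouse 6 (114.5 FPM per kb), and at 48 h Nid1 was above Hspg2 in 7 of 10 sets and Hspg2 above Lamc1 in 5 of 10. At 24 h Nid1 was above Lamc1, the next by median (51.0 FPM per kb), in 6 of 6 mice, whereas Lamc1 exceeded Nid2 (50.6) in 3 of 6, Nid2 exceeded Hspg2 (39.5) in 4 of 6 and Hspg2 exceeded Lamb1 (36.1) in 5 of 6. These 4 neighbours therefore overlapped in level. Lama5 (14.4 FPM per kb), Agrn (11.95), Lama2 (6.33) and Lama4 (5.67) were lower, with Lama2 above Lama4 in 3 of 6 mice, and Lama3 came last at 0.362 FPM per kb. At 48 h Nid2 ranked lower (12.1 FPM per kb), below Hspg2 (37.3), Lamc1 (32.6) and Lamb1 (21.8), the last in 9 of 10 sets. The median of each alpha chain among the 10 genes was thus below those of the beta and gamma chains Lamb1 and Lamc1 at both times. Other laminin chains were not ranked here, and of 5 listed only 4 had counts. The order at 24 h was not tested against that at 48 h, since the tables were scaled separately.

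A gene was called changed when its Benjamini-Hochberg adjusted p (FDR) was under 0.05 both in edgeR and in DESeq2 and its mean reached 5 FPM in 1 of the groups compared. All 10 genes passed the low-count filter at both times, but Lama3 stayed under 5 FPM on average in every comparison except AngII against control at 24 h, so that 9 genes could be called elsewhere. At 24 h the single stimuli differed. With U46619, 2 of 9 were called, both lower (Lama2 and Agrn), against 38.8% of 10415 genes. EGF+U46619 gave 2 of 9, both lower (Lama2 and Lama4), against 46.4% of 10454, and EGF+AngII+U46619 gave 4 of 9, all lower (Lama2, Lama4, Nid2 and Agrn), against 48.0% of 10473. With 9 genes these counts are too small to tell the members from all genes, and the difference was not tested. Of 5 other laminin chains, listed apart from the members, 2 could be called in each of these comparisons. In each of them 1 was called higher and 0 lower (50.0%), so the lower calls hold for the members and not for all laminin chains. The median log2-fold change of the 9 genes was -0.23 with U46619, -0.17 with EGF+U46619 and -0.42 with EGF+AngII+U46619, beside -0.0035, 0.017 and 0.033 over all genes at that level.

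EGF against control at 24 h gave 0 of 9 in edgeR and DESeq2 together, against 0.0386% of 10352 genes, with 3 of the 9 at an unadjusted edgeR p under 0.05 and 0 by DESeq2 alone. That share stands for 4 genes, and the number over all genes was far higher without mouse 6 or by DESeq2 alone, as given at the end. AngII gave 0 of 10, against 0.0% of 10192, with 0 at that unadjusted p in edgeR and 0 by DESeq2 alone. For EGF+AngII the count in both tools was 0 of 9, against 4.39% of 10373, with 3 at the unadjusted edgeR p and 0 by DESeq2 alone. The direct comparisons use the same libraries again. U46619 against EGF called 4 of 9, all lower (Lama2, Lama4, Lamb1 and Nid1), against 16% of 10303, and EGF+U46619 against EGF called 2 of 9, both lower (Lama2 and Lama4), against 18.7% of 10325. EGF+U46619 against U46619 gave 0 of 9 in both tools (0.0% of 10103; 0 at the unadjusted edgeR p and 0 by DESeq2 alone), and so did the EGF by U46619 interaction, which tests departure from the sum of the single changes (0.0% of 10511; 0 and 0).

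At 48 h the calls went mostly upward. U46619 against control called 2 of 9, both higher (Lama5 and Nid2), against 14.8% of 10470, and EGF+U46619 called 1 of 9, higher (Nid1), against 20.7% of 10482. U46619 against EGF called 3 of 9, Lama5 and Nid2 higher and Lama4 lower, against 14.3% of 10464, and EGF+U46619 against EGF called Lama5 alone, 1 of 9, higher, against 18.2% of 10470. Without the control of set B2-4, EGF+U46619 called 3 of 9 in place of 1, with Lama2 (log2-fold change -0.52) and Lama5 (0.47) beside Nid1 (0.46), and U46619 called Lama2 (-0.55) beside Lama5 (0.75) and Nid2 (0.94). The counts were the same when the control of B2-2 was left out too.

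EGF, AngII and EGF+AngII against control at 48 h gave 0 of 9 each in edgeR and DESeq2 together (0.0% of 10389, 0.0% of 10433 and 0.0% of 10458 genes), with 0, 0 and 1 of the 9 at an unadjusted edgeR p under 0.05 and 0, 0 and 0 by DESeq2 alone. EGF+U46619 against U46619 gave 0 of 9 (0.0% of 10218; 1 at the unadjusted edgeR p, 0 by DESeq2 alone) and the interaction 0 of 9 (0.0% of 10547; 0 and 0). EGF was the only stimulus in both batches. Within B1 its log2-fold changes ran from -0.45 (Lama3) to 0.53 (Nid1), and within B2 from -0.73 (Hspg2) to -0.014 (Lama4), with 0 of the members called in either batch. Without the control of B2-4, or of B2-2 and B2-4, the counts for EGF, AngII and EGF+AngII were again 0. Hspg2 had 0.38 in B1 against -0.73 in B2, where the control of B2-4 held 963 FPM and the EGF library of that set 239. AngII and U46619 each had 1 batch only.

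**Figure D1:**
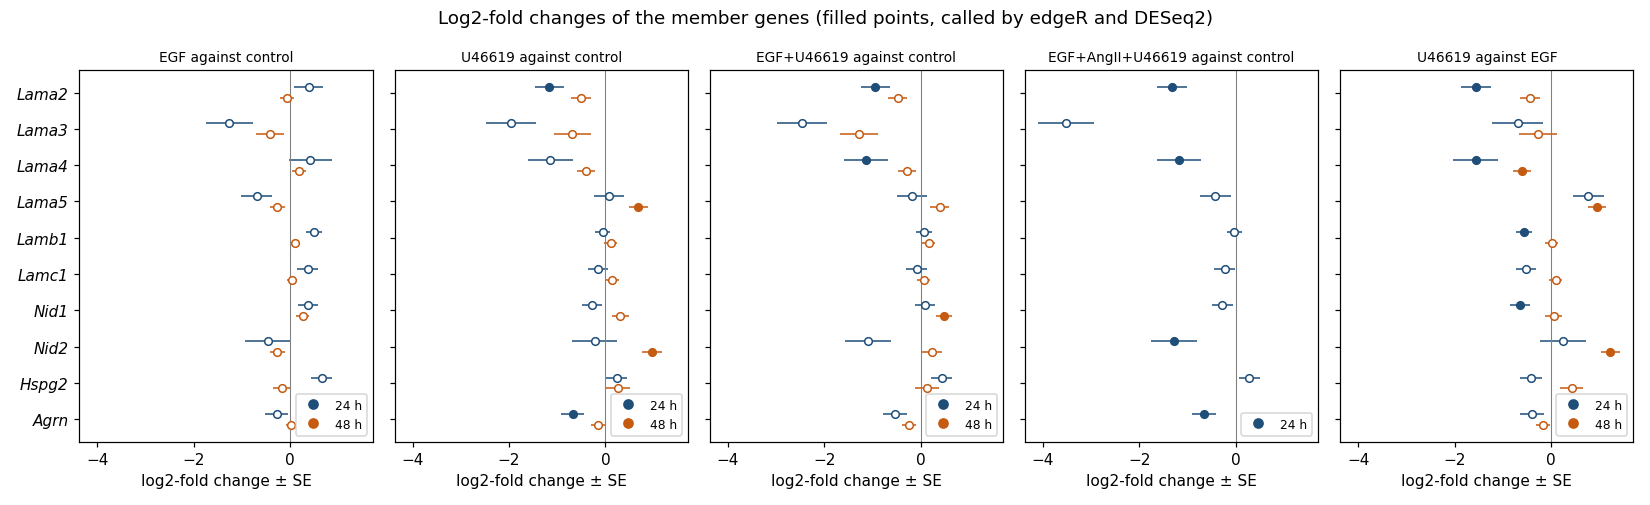
Log2-fold changes (± SE of the edgeR fit) of the 10 genes in 5 comparisons at 24 h (blue) and 48 h (orange); filled points were called by both tools, open points were not. Lama2 lies below 0 with U46619 at 24 h (-1.16) and Nid2 above 0 at 48 h (0.96), while EGF has open points only.

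Among the alpha chains, Lama2 encodes the chain of muscle and nerve laminins whose loss causes congenital muscular dystrophy. The gene (ENSMUSG00000019899) spans chromosome 10, 26980036 to 27619758, on the minus strand (build GRCm38, GENCODE M21), and 3.86% of its exon length is shared with Gm48084 on the opposite strand. At 24 h Lama2 measured 37.5 to 169.03 FPM in control (median 103, n = 6) and 20.8 to 63.4 FPM with U46619 (median 48.1, n = 6). Each mouse was lower with U46619, and the ranges overlapped, with mice 4 and 6 low in control (37.5 and 53.7 FPM). Lama2 fell with U46619 (log2-fold change -1.16 ± 0.31 SE, 2.24-fold, FDR = 0.00389 in edgeR and 0.000714 in DESeq2), in 6 of 6 mice. With EGF+U46619 it spanned 21.6 to 66.8 FPM (median 51.2) and was called lower at -0.94 (FDR = 0.0138), in 5 of 6 mice, mouse 4 being level (38.0 against 37.5 FPM). The EGF+U46619 call was lost without mouse 1, 5 or 6 (-0.84 each).

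With all 3 stimuli Lama2 ranged from 8.82 to 62.6 FPM (median 39.4) and was called lower at -1.33 (FDR = 0.000856), in 5 of 6 mice; without the library of mouse 3, which held the 8.82 FPM, it remained called at -1.10. EGF alone left a wide range of 47.0 to 342 FPM (median 114), with mice 1 and 2 at 209.5 and 342 FPM against 114.7 and 157.3 in control, and its change of 0.39 was not called (FDR = 0.511, higher in 4 of 6 mice). Set directly against EGF, Lama2 was lower with U46619 (-1.55, FDR = 0.00135) and with EGF+U46619 (-1.33, FDR = 0.00354), in 6 of 6 mice each. At 48 h the culture sets B1-1 to B1-5 held 126, 157.1, 66.8, 72.7 and 64.5 FPM in control and 67.5, 89.2, 63.8, 72.8 and 59.8 FPM with U46619. Only the 2 sets with the highest control level were clearly lower, and the change of -0.51 was not called over all libraries (FDR = 0.107, lower in 4 of 5 sets), though it was without the control of B2-4, as given above. Within batch B1 Lama2 was called lower against EGF with U46619 (-0.56, FDR = 0.0287) and with EGF+U46619 (-0.53, FDR = 0.0318), neither of which was called over all libraries (-0.44 and -0.41, lower in 4 of 5 sets each).

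Fibroblast markers were lower with U46619 as well. Of 7 markers of adventitial fibroblasts all 7 had counts, with Dcn the most abundant (mean 448 FPM at 24 h). With U46619 at 24 h 6 of 7 were called lower (85.7% beside 38.8% of all genes), with a median log2-fold change of -1.40. Their sum was 453 to 3200 FPM in control (median 789) and 160.9 to 1919 FPM with U46619 (median 374), lower in each mouse. The smooth muscle sum went the other way, from 1277 to 5719 FPM in control (median 2584) to 4406 to 15240 FPM with U46619 (median 11999), with 1 of 5 markers called, Acta2, at 2.05 (FDR = 0.000202, higher in 6 of 6 mice). This sum is mostly Acta2, and of the 5 markers 3 were above 0 and 2 below (median 0.22). At 48 h 3 of 7 fibroblast markers were called lower with U46619 (42.9% beside 14.8% of all genes). The smooth muscle sum of sets B1-1 to B1-5 was 3778, 1601, 4485, 7987 and 1737 FPM in control and 3441, 1643, 4867, 5503 and 1174 FPM with U46619, lower in 3 of 5 sets. Of 5 smooth muscle markers all 5 were below 0 with U46619 at 48 h (median log2-fold change -0.52), with 1 called lower and 0 higher. With EGF+U46619 at 48 h, where Nid1 was called higher, 4 of 5 smooth muscle markers were called lower and 0 higher (median -0.63). Of 7 fibroblast markers 4 were called lower there and 0 higher (median -1.015), beside 20.7% of all genes. Leukocyte markers (4 of 4 with counts, Lyz2 the most abundant) summed to a median of 62.4 FPM in control and 25.05 with U46619 at 24 h, and Schwann cell markers (3 of 3 with counts, S100b the most abundant) to 5.41 and 1.07 FPM. In bulk cultures fewer cells of a type and less RNA per cell cannot be told apart, and the part of these markers in the result was not tested.

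Lama4 encodes the alpha chain typical of vascular laminins, made by endothelial and mesenchymal cells; it lies on chromosome 10, 38965515 to 39110188 (ENSMUSG00000019846, plus strand). In control at 24 h it measured 45.0 FPM in mouse 1, 65.3 in mouse 2, 138 in mouse 3, 54.4 in mouse 4, 71.5 in mouse 5 and 197 in mouse 6. After U46619 the same mice held 3.48, 10.7, 65.9, 45.15, 64.2 and 181.9 FPM. Mice 1 and 2 thus dropped to a small fraction of their control while mice 4, 5 and 6 were close to theirs, so that every mouse was lower but by very different amounts (log2 ratios from -3.52 to -0.12). The average change of -1.14 missed the call in edgeR (FDR = 0.0529) and passed in DESeq2 alone (FDR = 0.0221), in 6 of 6 mice. It was called without mouse 6 (-1.37), with the size factors of DESeq2 in edgeR (FDR = 0.0496), with no low-count filter (FDR = 0.0354) and with a minimum of 10 counts in every library (FDR = 0.0492). The mice with the steepest drop were those with the lowest endothelial marker sums, and the mouse with the least drop had the highest; the part of endothelial transcripts in this difference was not tested.

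The combinations repeated this pattern for Lama4. With EGF+U46619 it spanned 3.07 to 142 FPM (median 61.0) and was called lower at -1.13 (FDR = 0.0478), in 6 of 6 mice, and with EGF+AngII+U46619 it spanned 3.95 to 193 FPM (median 50.1) and was called at -1.18 (FDR = 0.0385), again in 6 of 6. Both calls rested on few mice: they were lost without mouse 1 (-0.69 and -0.75), mouse 2 (-0.88 and -0.93) or mouse 3 (-1.19 and -1.12), the first also without mouse 6 (-1.27), and the second also without the single triple-stimulus library of mouse 3 (-1.12). EGF alone gave 53.1 to 197 FPM (median 111), higher in 6 of 6 mice by 0.42 but not called (FDR = 0.642). Against EGF, Lama4 was lower with U46619 (-1.56, FDR = 0.0234) and with EGF+U46619 (-1.55, FDR = 0.0208), in 6 of 6 mice each. Neither was called without mouse 1 (-1.17 and -1.16) or mouse 2 (-1.12 and -1.09).

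At 48 h Lama4 in sets B1-1 to B1-5 measured 119, 190, 67.5, 30.9 and 123 FPM with EGF and 57.8, 65.1, 67.6, 26.4 and 78.7 FPM with U46619. Set B1-3 was level and the other 4 were lower with U46619, the ranges overlapping. U46619 against EGF was called at -0.59 (FDR = 0.0334, lower in 4 of 5 sets), but not without set B1-1 (-0.48), B1-2 (-0.36), B1-5 (-0.61), B2-2 (-0.58) or B2-6 (-0.59), nor within batch B1 (-0.69, FDR = 0.0549) or with the mouse number of the labels as block (-0.82, FDR = 0.221). Against control the change of -0.41 was not called (FDR = 0.157), with sets B1-1 and B1-2 lower and the other 3 higher, and was called without set B1-3 (-0.63). EGF+U46619 against EGF, not called for Lama4 (-0.47, FDR = 0.0891, lower in 4 of 5 sets), was called without set B1-3 too (-0.64).

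**Figure D2:**
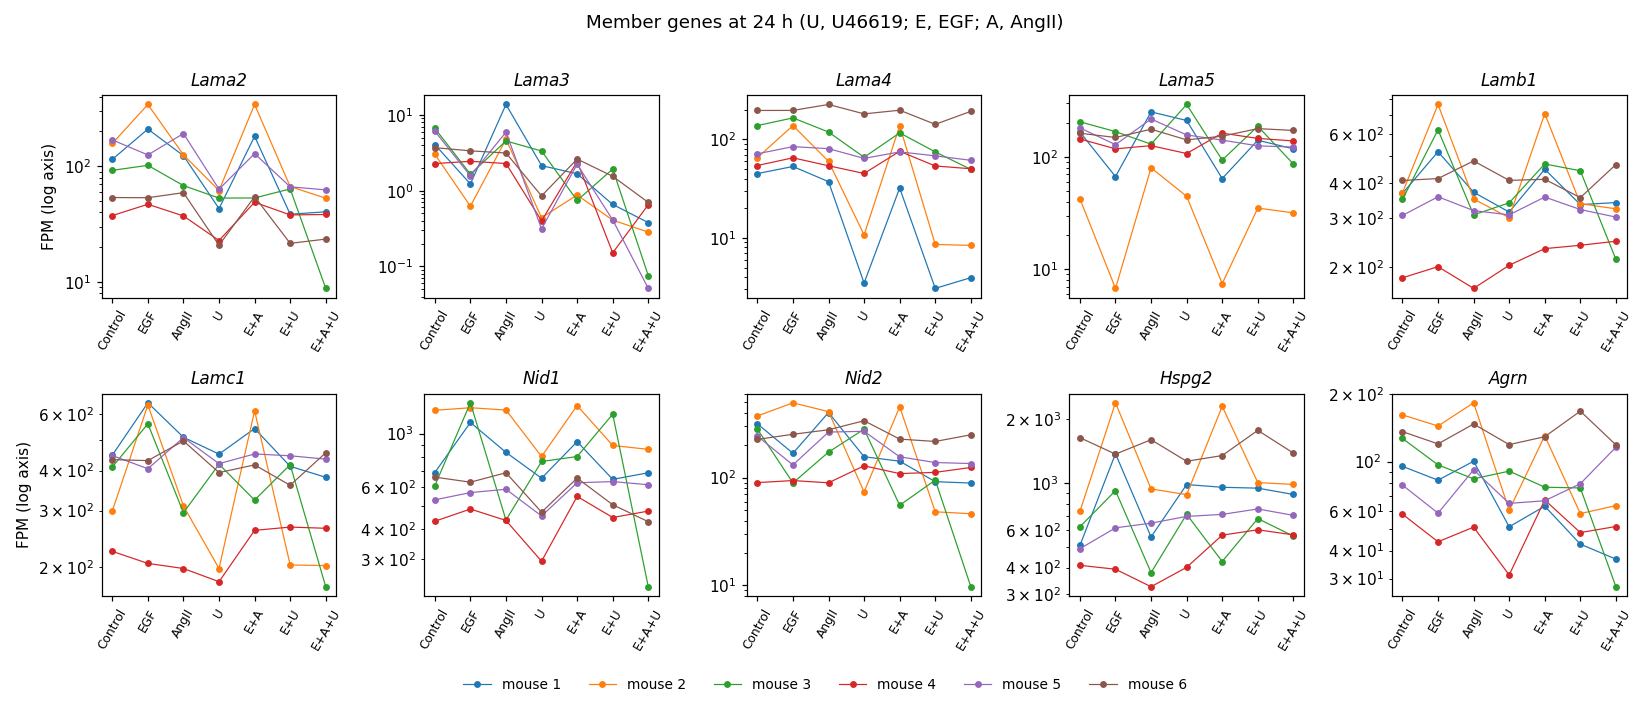
FPM (log axis) of the 10 genes in the 42 libraries of 24 h; each point is a library and each line joins the 7 cultures of a mouse, the incubations having no order. Lama4 with U46619 (U) falls to 3.48 FPM in mouse 1 and lies at 181.9 FPM in mouse 6, and the triple-stimulus culture of mouse 3 is low for Lama2 (8.82) and Nid2 (9.73).

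Lama5 encodes the broadly expressed alpha chain of endothelial and epithelial laminins and lies on chromosome 2, 180176373 to 180225859 (ENSMUSG00000015647, minus strand). Sets B1-1 to B1-5 at 48 h measured 61.9, 25.0, 75.8, 65.95 and 136.5 FPM in control and 158.3, 36.3, 144, 105 and 252 FPM with U46619. Every set was higher with U46619, set B1-2 was lowest and B1-5 highest in both groups, and the ranges overlapped. Lama5 rose with U46619 at 48 h (0.68 ± 0.20 SE, 1.605-fold, FDR = 0.01996 in edgeR and 0.00935 in DESeq2), in 5 of 5 sets, and against EGF (0.95, FDR = 0.00128), in 5 of 5. The call against control was lost without set B1-1 (0.58), B1-3 (0.66), B1-4 (0.70) or B1-5 (0.64), the direction being the same. With the mouse number of the labels as block, neither call was made (0.87, FDR = 0.1108 against control, and 1.08, FDR = 0.0545 against EGF). With EGF+U46619 the sets held 192, 18.7, 127, 95.6 and 157.8 FPM, higher than EGF in 4 of 5 sets (0.66, FDR = 0.01755; not called without B1-1 at 0.46, B1-3 at 0.67 or B1-4 at 0.68, nor within batch B1 at 0.52, FDR = 0.05003, nor with the mouse number as block at 0.75) and not called against control over all libraries (0.40, FDR = 0.177, higher in 4 of 5 sets), though it was within batch B1 (0.58).

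At 24 h Lama5 was not called in any comparison. It measured 42.3 to 205 FPM in control (median 163.95), 6.77 to 167.3 FPM with EGF (median 123) and 44.5 to 291 FPM with U46619 (median 148.8). Mouse 2 was lowest throughout and had the steepest difference with EGF, from 42.3 to 6.77 FPM. EGF was lower in 6 of 6 mice (-0.70), which did not pass (FDR = 0.235), and U46619 differed from control by 0.077 (FDR = 0.871, higher in 3 of 6 mice).

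Lama3, the alpha chain of epithelial laminins that anchor hemidesmosomes, was near the detection floor (ENSMUSG00000024421, chromosome 18, 12333819 to 12583013, plus strand). It measured 2.28 to 6.67 FPM in control at 24 h (median 3.89), 0.314 to 3.35 FPM with U46619 (median 0.647), 0.151 to 1.93 FPM with EGF+U46619 (median 0.535) and 0.0512 to 0.700 FPM with all 3 stimuli (median 0.331). Control and each of these last 2 groups did not overlap, while U46619 overlapped control through mouse 3 (3.35 FPM). The changes of -1.96 (FDR = 0.00354), -2.46 (FDR = 0.000397) and -3.52 (FDR = 1.6e-05) were lower in 6 of 6 mice each and passed both tools, but the gene was under the 5 FPM minimum and is not counted as called. EGF (-1.27, FDR = 0.167) and EGF+AngII (-1.25, FDR = 0.112) did not pass at 24 h and were lower in 5 of 6 mice each. At 48 h sets B1-1 to B1-5 held 6.02, 2.33, 5.35, 1.75 and 1.95 FPM in control and 3.71, 0.473, 1.39, 1.84 and 0.439 FPM with EGF+U46619, which passed both tools under the same minimum (-1.27, FDR = 0.0236 in edgeR and 0.00561 in DESeq2, lower in 4 of 5 sets). AngII at 24 h spanned 2.29 to 13.8 FPM (median 4.66), the highest value in mouse 1, with a change of 0.40 (FDR = 1.00, higher in 3 of 6 mice).

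Lamb1 and Lamc1 encode the beta and gamma chains shared by most laminins of the vessel wall (Lamb1: ENSMUSG00000002900, chromosome 12, 31265234 to 31329644, plus strand; Lamc1: ENSMUSG00000026478, chromosome 1, 153218922 to 153332786, minus strand). Lamb1 at 24 h measured 183.1 to 408 FPM in control (median 358), 201 to 764 FPM with EGF (median 466.4) and 203 to 409 FPM with U46619 (median 311). Mouse 2 was highest with EGF (764 FPM) and with EGF+AngII (708.8 FPM), and mouse 4 was lowest in each of these 3 groups, which overlapped. EGF was higher than control in 6 of 6 mice (0.50), with FDR = 0.119 in edgeR and 0.0570 in DESeq2, so it was not called. U46619 against EGF was called lower at -0.56 (FDR = 0.0214), in 5 of 6 mice, mouse 4 being level. The call was lost without mouse 1 (-0.53) or mouse 2 (-0.39). Against control, U46619 differed by -0.060 (FDR = 0.807, higher in 3 of 6 mice) at 24 h and by 0.11 (FDR = 0.656, higher in 3 of 5 sets) at 48 h.

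Lamc1 was not called in any of the 19 comparisons. It held 224 to 447 FPM in control (median 422), 205 to 652 FPM with EGF (median 495) and 179.8 to 450.4 FPM with U46619 (median 407) at 24 h. Mice 1 and 2 were high with EGF and mice 2 and 4 low with U46619. U46619 against EGF at 24 h gave -0.52 (FDR = 0.102, lower in 5 of 6 mice). At 48 h sets B1-1 to B1-5 held 309, 458.5, 201, 239 and 294 FPM in control and 372, 403, 282, 346 and 330.3 FPM with U46619, a change of 0.13 (FDR = 0.597, higher in 4 of 5 sets).

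Nid1 links laminin to collagen IV and perlecan; it lies on chromosome 13, 13437551 to 13512269 (ENSMUSG00000005397, plus strand). At 24 h it measured 432 to 1251 FPM in control (median 633), 485 to 1344 FPM with EGF (median 870.4) and 294 to 803 FPM with U46619 (median 561). Mouse 2 was high in control (1251 FPM) and mouse 3 with EGF (1344 FPM), and U46619 was below EGF in every mouse. U46619 against EGF was called at -0.64 (FDR = 0.0384), in 6 of 6 mice, but the call was lost without mouse 1 (-0.61), 2 (-0.63), 4 (-0.64), 5 (-0.70) or 6 (-0.67). Against control neither U46619 (-0.27, FDR = 0.325, lower in 5 of 6 mice; called without mouse 3, -0.40) nor EGF (0.37, FDR = 0.358, higher in 5 of 6) was called.

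In the 48 h cultures Nid1 of sets B1-1 to B1-5 held 518, 875.5, 426.5, 576.5 and 704 FPM in control and 637.5, 921, 896, 1171 and 1141 FPM with EGF+U46619. Each set was higher, sets B1-3 and B1-4 by about their own control level, and the ranges overlapped. This was called at 0.49 (FDR = 0.0495 in edgeR and 0.0262 in DESeq2), in 5 of 5 sets, close to the threshold: it was not called without set B1-1 (0.55), B1-3 (0.39), B1-4 (0.37), B1-5 (0.43) or B2-2 (0.51). U46619 alone gave 504, 869, 695, 1172 and 1037 FPM in these sets, a change of 0.31 that was not called (FDR = 0.268, higher in 3 of 5 sets).

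Nid2 encodes the second nidogen, with partly overlapping functions, and lies on chromosome 14, 19751265 to 19811787 (ENSMUSG00000021806, plus strand); 8.45% of its exon length is shared with Rtraf on the opposite strand. At 48 h the sets B1-1 to B1-5 measured 65.4, 64.5, 57.0, 68.2 and 126 FPM in control, 77.5, 54.9, 59.2, 60.7 and 66.4 FPM with EGF, and 205.5, 93.2, 143, 93.2 and 273 FPM with U46619. Each U46619 culture was above the control of its set, and all 5 were above all 10 EGF cultures, whose highest value was 77.5 FPM. Nid2 rose with U46619 (0.96 ± 0.20 SE, 1.95-fold, FDR = 0.00182 in edgeR and 0.000128 in DESeq2), in 5 of 5 sets, and was higher against EGF by 1.23 (FDR = 0.000146), also in 5 of 5. With EGF+U46619 the sets held 200.2, 44.1, 74.2, 58.6 and 130 FPM, which was not called against control (0.24, FDR = 0.467, higher in 3 of 5 sets). Against EGF it was not called either (0.51, FDR = 0.0902, higher in 3 of 5 sets), but it was without set B1-2 (0.70). EGF+U46619 was below U46619 alone in 5 of 5 sets (-0.72), which did not pass (FDR = 1.00 in edgeR), though in a fit of the groups compared alone it did (-0.76, FDR = 0.0119).

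The 24 h values of Nid2 went the other way in some mice. It spanned 89.9 to 373 FPM in control (median 262), 73.6 to 337 FPM with U46619 (median 212), 48.2 to 216 FPM with EGF+U46619 (median 103) and 9.73 to 249 FPM with all 3 stimuli (median 107). Mice 1, 2, 3 and 5 were lower with the 3 stimuli than in control, mice 4 and 6 were higher, and mouse 3 had the extreme value. The triple combination was called lower at -1.28 (FDR = 0.0309), in 4 of 6 mice. Without the library of mouse 3 it was not called (-0.98, FDR = 0.0723), nor without mouse 1 (-1.15), mouse 3 (-0.87) or mouse 5 (-1.37). EGF+U46619 gave -1.09 (FDR = 0.0629 in edgeR and 0.0474 in DESeq2, lower in 5 of 6 mice), which was called without mouse 4 (-1.36) or without the triple-stimulus library of mouse 3 (-1.07). U46619 alone gave -0.23 (FDR = 0.737, lower in 3 of 6 mice), and the difference between 24 h and 48 h was not tested.

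**Figure D3:**
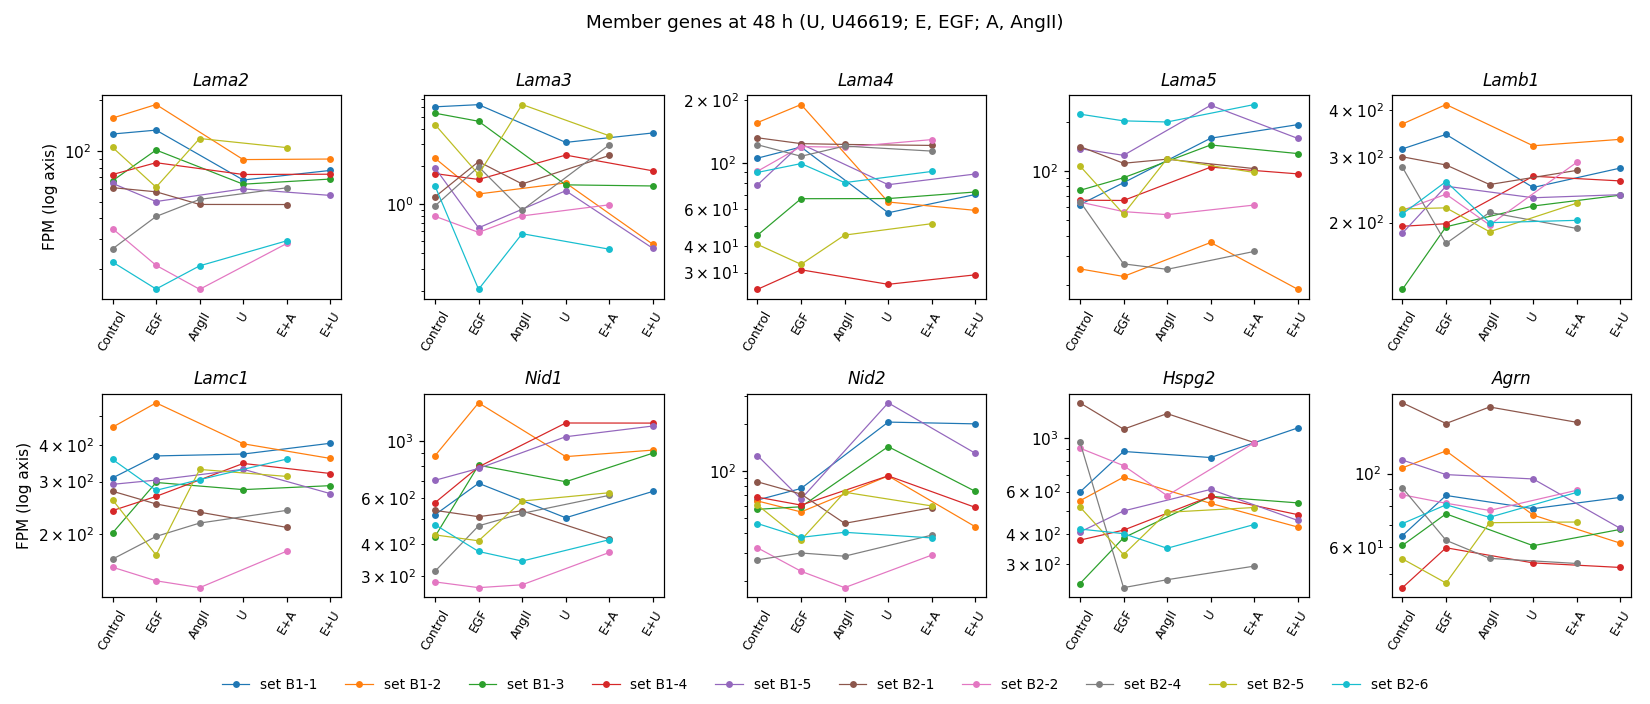
FPM (log axis) of the 10 genes in the 40 libraries of 48 h; each point is a library and each line joins the cultures of a set (B1 sets have U46619, B2 sets AngII). The U46619 points of Nid2 lie between 93.2 and 273 FPM and those of EGF between 22.9 and 77.5, and the control of set B2-4 (963 FPM) stands above the rest of its set for Hspg2.

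Hspg2 encodes perlecan, whose heparan sulfate chains bind growth factors and restrain smooth muscle proliferation; it lies on chromosome 4, 137468769 to 137570630 (ENSMUSG00000028763, plus strand). At 24 h it measured 508.5, 735.5, 623, 409.8 and 491 FPM in the controls of mice 1 to 5 and 1638 FPM in mouse 6. EGF gave 1376, 2391, 922, 393, 615.5 and 1370.0 FPM in mice 1 to 6. Mice 1, 2, 3 and 5 were higher with EGF, steeply so in mice 1 and 2, and mice 4 and 6 were lower. The change of 0.65 was not called (FDR = 0.127 in edgeR and 0.0650 in DESeq2, higher in 4 of 6 mice), but it was without mouse 6 (0.87, FDR = 0.0488), which raised the count for EGF at 24 h from 0 to 1. U46619 gave 401 to 1268 FPM (median 798; 0.23, FDR = 0.423, higher in 4 of 6 mice), and EGF+U46619 was higher than control in 6 of 6 mice (0.43, FDR = 0.1103).

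Perlecan at 48 h differed between culture sets. Controls of B1 spanned 248.5 to 597 FPM (B1-3 and B1-1) and those of B2 419 to 1402 FPM (B2-6 and B2-1). Sets B1-1 to B1-5 held 831, 536, 573, 573 and 612 FPM with U46619, higher than control in 4 of 5 sets. The change of 0.26 was not called over all libraries (FDR = 0.554), nor without the control of B2-4 (0.39) or of B2-2 and B2-4 (0.41), but it was within batch B1 (0.56, FDR = 0.0196) and in a fit of the groups compared alone (0.57, FDR = 0.0295).

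Agrn encodes agrin, a heparan sulfate proteoglycan that binds laminin and dystroglycan and organises the neuromuscular junction; it lies on chromosome 4, 156165290 to 156197488 (ENSMUSG00000041936, minus strand). At 24 h it measured 58.2 to 161.5 FPM in control (median 111) and 31.1 to 119 FPM with U46619 (median 62.8). Every mouse was lower with U46619, mouse 2 most (161.5 to 60.6 FPM) and mouse 6 least (136 to 119 FPM), and the ranges overlapped. Agrn fell with U46619 (-0.68 ± 0.25 SE, 1.61-fold, FDR = 0.0313 in edgeR and 0.0175 in DESeq2), in 6 of 6 mice; the call was lost without mouse 1 (-0.63), 2 (-0.55) or 4 (-0.63). EGF+AngII+U46619 was called at -0.67 (FDR = 0.0303), in 5 of 6 mice, and was not called without mouse 1 (-0.53), mouse 2 (-0.53), mouse 3 (-0.44) or the library of mouse 3 (-0.47). At 48 h U46619 gave 78.4, 75.0, 60.7, 53.8 and 96.4 FPM in sets B1-1 to B1-5 beside 65.1, 104, 60.8, 45.3 and 110 FPM in control, lower in 3 of 5 sets (-0.15, FDR = 0.559).

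Among 22 further basement membrane genes, 20 had counts (Col4a5 and Col4a6 were listed at 0) and 14 could be called with U46619 at 24 h, of which 3 were higher and 4 lower, 50.0% beside 38.8% of all genes. The main collagen IV chains were higher: Col4a1 went from a median of 2179.8 FPM in control to 3973 FPM (0.60, FDR = 0.00601) and Col4a2 from 1259.7 to 2429.8 FPM (0.76, FDR = 0.00219), each in 6 of 6 mice. Loxl2, a cross-linking oxidase, was higher too (0.65, FDR = 0.0120; 6 of 6 mice). Col18a1 (-0.72, FDR = 0.0490, lower in 6 of 6), Fbln1 (-1.68, FDR = 5.2e-05; 6 of 6), Smoc2 (-1.26, FDR = 0.00649; 5 of 6) and Hmcn1 (-1.46, FDR = 0.0128; 4 of 6) were lower. At 48 h 16 could be called and 2 were, 12.5% beside 14.8% of all genes, with Fbln2 higher (0.60, FDR = 0.00205; 5 of 5 sets) and Col15a1 lower (-1.24, FDR = 0.00215; 5 of 5).

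The laminin receptors on the list were 9, of which 7 had counts and Itgb1 and Dag1 were listed at 0. With U46619 Itgb4, the beta subunit of the hemidesmosome integrin, was the single one called at 24 h (-0.96, FDR = 0.0247, lower in 6 of 6 mice), of 6 that could be called (16.7% beside 38.8% of all genes). Itga1, the alpha subunit of a collagen and laminin integrin, was the single one at 48 h (-1.08, FDR = 9.0e-05, lower in 5 of 5 sets), of 7 (14.3% beside 14.8% of all genes).

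Of 21 enzymes that make or trim the heparan sulfate of perlecan and agrin, 19 had counts (Glce and Hs6st2 were listed at 0), and with U46619 at 24 h 18 could be called and 3 were higher and 5 lower, 44.4% beside 38.8% of all genes. Higher were Xylt1, which starts the chains (1.01, FDR = 0.00649), the polymerase Ext1 (0.79, FDR = 0.000105) and the sulfotransferase Hs2st1 (0.68, FDR = 0.000456), each in 6 of 6 mice. Sulf2, which removes sulfate groups, went from a median of 226 FPM to 109 FPM (-1.18, FDR = 0.000167, lower in 6 of 6), and the heparanase Hpse (-0.79), Hs3st1 (-0.82), Xylt2 (-0.37) and Extl2 (-0.29) were lower in 6 of 6 mice too. At 48 h 3 of 17 were called, 17.6% beside 14.8% of all genes, all higher, with Xylt1 at 1.44 (FDR = 3.6e-05) and B4galt7 at 0.42 (FDR = 0.000549) in 5 of 5 sets and Hs2st1 at 0.29 (FDR = 0.0179) in 4 of 5. None of these 3 lists had a called gene with EGF or AngII against control at either time in edgeR and DESeq2 together; by DESeq2 alone 1 basement membrane gene passed with EGF at 24 h, where the unadjusted edgeR p was under 0.05 for 8, 0 and 5 genes of the 3 lists. Of the marker lists, 1 of 7 endothelial genes was called with U46619 at 24 h (14.3% beside 38.8% of all genes), Cldn5 (-0.96, FDR = 0.00820, lower in 3 of 6 mice, higher in 0). At 48 h 2 of 6 were called (33.3% beside 14.8%), Cldn5 (-1.72) and Tek (-0.90).

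Over the 42 libraries of 24 h, with the mean of each mouse removed, the members differed in how they varied together. Lamb1 and Lamc1 had r = 0.89, and Lamb1 was the third nearest of all genes to Lamc1 and Lamc1 the nearest to Lamb1. Lama2 was near Lamc1 (0.81) and Lama4 (0.80), Nid2 near Agrn (0.80), and Lama5 had negative values with Lamb1 (-0.52) and Hspg2 (-0.51). Among the nearest genes over all were Kif13b for Lama2 (0.94), Lmo2 for Lama4 (0.95), Myo1d for Lama5 (0.82), Peg13 for Lama3 (0.92), Tex2 for Lamc1 (0.91), Gprc5b for Nid1 (0.88), Grb10 for Nid2 (0.89) and Clcn7 for Agrn (0.92). These are descriptions: the libraries share mice, incubations and scaling.

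Promoters of 300 bases (250 before and 50 after the RefSeq start, build GRCm38.p6) were held for 6 of the 10 genes, with 7 entries, and were missing for Lama3, Lama4, Lamc1 and Nid2. On both strands, the GC box GGGCGG was in all 7, against 35.6% of 32817 promoters, the TEAD motif GGAATG in that of Nid1 (14.7% of all), the CArG box in that of Lama2 (1.63% of all) and the AP-1 motif TGANTCA in 0 (7.81% of all), with no overlap between matches of different motifs. A match describes the letters only. The promoters of Lama2, called lower with U46619 at 24 h, and of Lama5 and Nid1, called higher at 48 h with U46619 and EGF+U46619, are given here as examples of members that moved differently, from chr10:27616893-27617192 (minus strand), chr2:180225810-180226109 (minus strand) and chr13:13437352-13437651 (plus strand), with capitals for the CArG box in Lama2, the GC boxes in Lama5 and the TEAD motif in Nid1.
Lama2: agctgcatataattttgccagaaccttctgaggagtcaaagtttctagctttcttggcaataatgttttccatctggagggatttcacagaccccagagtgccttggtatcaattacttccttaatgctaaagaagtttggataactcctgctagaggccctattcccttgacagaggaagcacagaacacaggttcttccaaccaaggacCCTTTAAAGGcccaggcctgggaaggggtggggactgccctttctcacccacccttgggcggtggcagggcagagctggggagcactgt
Lama5: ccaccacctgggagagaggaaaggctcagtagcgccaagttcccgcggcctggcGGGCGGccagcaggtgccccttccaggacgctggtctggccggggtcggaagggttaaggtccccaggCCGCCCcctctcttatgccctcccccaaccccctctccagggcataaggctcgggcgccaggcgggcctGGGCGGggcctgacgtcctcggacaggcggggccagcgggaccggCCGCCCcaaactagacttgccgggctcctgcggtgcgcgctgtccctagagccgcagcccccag
Nid1: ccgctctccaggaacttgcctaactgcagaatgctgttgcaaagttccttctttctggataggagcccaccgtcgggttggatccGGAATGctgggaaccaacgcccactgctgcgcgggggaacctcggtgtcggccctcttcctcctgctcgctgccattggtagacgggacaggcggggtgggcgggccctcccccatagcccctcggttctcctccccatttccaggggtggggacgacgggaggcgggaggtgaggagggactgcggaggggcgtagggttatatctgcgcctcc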

How the data were processed

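The count tables deposited by the authors were used as given; the submitters' processing notes name HISAT2 2.1.0, featureCounts and mm10. Counts were scaled by TMM within each time and tested with edgeR 4.0.16 (glmQLFit, glmQLFTest) and DESeq2 1.42.0 (Wald test) in R 4.3.3. A gene was called at Benjamini-Hochberg FDR < 0.05 in both tools with mean FPM of 5 or more in a compared group, after filterByExpr (14653 genes at 24 h, 15796 at 48 h, 14528 at both). The mouse was a block at 24 h and the culture set at 48 h. Pairs of libraries within a block deviated together in 126 of 126 cases at 24 h and 57 of 60 at 48 h. On simulated data the fits recovered 47 of 86 changes of log2 1 at 24 h and 65 of 93 at 48 h, with 8 and 12 false calls. The simulation changed far fewer genes than were called with U46619 here and tested only U46619 against control. Its spread was estimated from the data without the treatments in the model. These rates therefore check the code and do not carry over to the present calls. A gene not called is not shown to be unchanged. Of the libraries 0 pairs were identical. The genes and lists were chosen with earlier results of these data known. The 10 genes are counted in every comparison, with values for each call and for selected others, and of 3 other lists the genes called with U46619 against control are named. A list of 5 other laminin chains was also made, of which 2 could be called with U46619 against control. At 24 h 1 was called higher and 0 lower (50.0% beside 38.8% of all genes). At 48 h 1 was called higher and 0 lower too (50.0% beside 14.8%). With EGF+U46619 against control at 48 h 1 was called higher and 1 lower (100.0% beside 20.7%). Apart from the calls against control at 24 h given above, the other results of this list are left out. Neighbours are by Pearson r of log2(FPM+0.5) over 42 libraries with mouse means removed. Tables and plots used Python 3.11.15 (Matplotlib 3.10.9, SciPy 1.17.1, pandas 2.3.3, NumPy 2.4.6). At 48 h the labels give 5 mouse numbers for 10 culture sets, while the methods name another mouse per replicate; U46619 was in batch B1 only and AngII in B2 only.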

Additional observations from a re-analysis of the deposited data

Results flagged for a closer look

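In 13 of 130 groups of values 1 sample lay far from the others of its group, its gap to the next value over the range being above Dixon's critical value. A rate of about 1 in 20 groups would hold for normal values in independent groups. Here FPM were used without a log scale and the groups share mice and culture sets. The 13 groups therefore cannot be set against that rate. At 24 h these were Lama3 with AngII in mouse 1 (13.8 FPM), Lama4 with U46619 in mouse 6 (181.9 FPM) and with EGF+AngII+U46619 in mouse 6 (193 FPM), Lama5 in the control of mouse 2 (42.3 FPM), Nid1 in the control of mouse 2 (1251 FPM), Hspg2 in the control of mouse 6 (1638 FPM) and with EGF+U46619 in mouse 6 (1773 FPM), and Agrn with EGF+U46619 in mouse 6 (167.9 FPM). At 48 h they were Lama3 with AngII in set B2-5 (6.29 FPM), Nid1 with EGF in set B1-2 (1402 FPM), Hspg2 with U46619 in set B1-1 (831 FPM) and with EGF+U46619 in set B1-1 (1103 FPM), and Agrn with AngII in set B2-1 (158.8 FPM).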

How the results depend on the processing

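Under other settings, some chosen after seeing the data, 82 of 385 values of the 21 calls were no longer called. The sign was opposite in 0. That total includes settings that only drop a requirement of the same fit: edgeR alone, DESeq2 alone, no FPM minimum and the filter at the tested time only. There no call could be lost (0 of 21 in each), so the share understates the losses under the remaining settings. Outside the calls, 34 values not called before were called. The cause was not tested. With no replicate block, the number of the genes called was 0 for U46619 (2 with the block), 0 for EGF+U46619 (2) and 1 for the triple combination (4) against control at 24 h, 0 for EGF+U46619 (2) and 0 for U46619 (4) against EGF at 24 h, 1 for U46619 (2) and 0 for EGF+U46619 (1) against control at 48 h, and 0 for EGF+U46619 (1) and 1 for U46619 (3) against EGF at 48 h. With the mouse number of the labels as block at 48 h it was 1 for U46619 against control, 0 for EGF+U46619 against EGF and 1 for U46619 against EGF. With only the groups compared in the fit it was 1 for each of EGF+U46619 and the triple combination against control and 1 for EGF+U46619 and 2 for U46619 against EGF at 24 h, and 0 for EGF+U46619 against EGF and 1 for EGF+U46619 against U46619 at 48 h. For EGF+U46619 against control at 48 h it was 3 without the control libraries of culture sets B2-2 and B2-4, 2 in batch B1 alone and 2 with no FPM minimum. Leaving out 1 mouse, set or library gave 0 to 1 for EGF, 1 to 3 for U46619, 0 to 3 for EGF+U46619 and 1 to 4 for the triple combination against control at 24 h, 1 to 3 for EGF+U46619 and 1 to 4 for U46619 against EGF at 24 h, 1 to 3 for U46619 and 0 to 3 for EGF+U46619 against control at 48 h, and 0 to 2 for EGF+U46619 against EGF at 48 h. Over all genes, EGF at 24 h gave 4 calls, 338 without mouse 6, 142 with no low-count filter and 397 by DESeq2 alone.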
